A study of Mus musculus with 12 samples.

Results

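The miRNAs described here are 8 mature mouse miRNAs of 2 groups that are known from particular cell types, the family of miR-34 and miR-449 (mmu-miR-34a, mmu-miR-34b-5p, mmu-miR-34b-3p, mmu-miR-34c, mmu-miR-449a and mmu-miR-449b) and the pair mmu-miR-204 and mmu-miR-211. They were selected by name from the 469 miRNAs listed in the count files, star forms left out, and a miRNA that a file does not list was taken as 0 counts. All 8 had at least 1 count and all 8 were among the 431 miRNAs tested, which had at least 2 counts in total in frontal cortex (FCx) or in hippocampus (HP). They took 216 of 2505591 counts in FCx and 2855 of 12215856 counts in HP, or 0.00862% and 0.0234% of the counts on miRNAs.

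Small RNA was sequenced from FCx and from the entire HP of adult male C57BL/6J mice, untreated and 8 weeks old. RNA of 3 mice was pooled for each region, and each of the 2 pools gave 3 libraries told apart by an index of 6 nt in the 5′ adaptor, next to the end that is ligated to the miRNA. Indexes 3, 7 and 11 were used once in each region, and each library was run both alone and in a lane with the other indexes of its region (individual and pooled lane), and the counts of both runs were summed here. The spread over the 3 libraries of a region is therefore technical, p-values measure that spread alone, and animals cannot be compared. Per the labels, the cortical tissue of FCx came from a slice behind bregma.

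A miRNA guides the silencing complex to mRNAs that pair with its seed, bases 2 to 8 from the 5′ end, so miRNAs with the same seed share many of their targets. MiR-34a is a transcriptional target of the tumour suppressor p53 and is made in many tissues, neurons included. MiR-34b, miR-34c and the miR-449 miRNAs are known for multiciliated cells, such as the ependymal cells that line the ventricles, where they promote the formation of motile cilia. MiR-204 and miR-211 are known for the choroid plexus, the secretory epithelium that makes cerebrospinal fluid, and for pigmented epithelium of the eye. Which cells the reads came from was not measured.

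The mature sequences are shown because they define the groups and because the counts of near-identical members depend on single bases. Capitals mark the seed, and all sequences run 5′ to 3′. Those of miR-34c and miR-449b are as the study's supplementary table gives them, and the other 6 matched RefSeq (GRCm38.p6).
miR-34a: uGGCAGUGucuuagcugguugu
miR-34b-5p: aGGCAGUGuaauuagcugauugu
miR-34c: aGGCAGUGuaguuagcugauug
miR-449a: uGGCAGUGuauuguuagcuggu
miR-449b: aGGCAGUGuuguuagcugg
miR-34b-3p: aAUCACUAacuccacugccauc
miR-204: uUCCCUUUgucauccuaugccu
miR-211: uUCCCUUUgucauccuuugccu

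Of these, 5 carried the seed GGCAGUG, which in the RefSeq table of 1679 mature miRNAs occurs in 4 names, 3 of them among the 8 (miR-34a, miR-34b-5p and miR-449a) and the other being miR-449c. MiR-34b-3p, from the opposite arm of the miR-34b hairpin, carried AUCACUA, which miR-34c-3p shares. MiR-204 and miR-211 carried UCCCUUU. With positions counted from 1 at the 5′ end, miR-34b-5p and miR-34c differed by 1 substitution over 22 bases (A11G), and miR-204 and miR-211 by 1 over 22 (A17U). MiR-34c and miR-449b differed by 2 over the 19 bases of miR-449b (A10U and A19G), which is as many mismatches as the alignment allowed. The counts of these 3 pairs are therefore uncertain where the alignment could place a read on either member. MiR-34a shared 11 of 22 bases with miR-34c and differed at the other 11.

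In NCBIM37, the build of the files, each mature sequence had 1 exact match on the chromosomes of the hairpins. The miR-34b and miR-34c hairpins lie side by side on the minus strand at chr9:50911667-50911750 and chr9:50911139-50911215, in no annotated gene, with 4833427G06Rik the nearest protein-coding gene. The miR-34a hairpin is at chr4:149442563-149442664 on the plus strand, also outside annotated genes and 18810 bp from Gpr157. The miR-449a and miR-449b hairpins are at chr13:113827742-113827832 and chr13:113827627-113827706, both on the plus strand and in an intron of Cdc20b, a gene of the cell division cycle 20 family. MiR-204 lies in an intron of Trpm3 (chr19:22825095-22825162) and miR-211 in an intron of Trpm1 (chr7:71350692-71350797), both on the plus strand, as their hosts are, and both hosts encode TRP channels of the melastatin group.

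Depth differed between the regions and bears on each value below. With indexes 3, 7 and 11, the total was 391410, 1461732 and 652449 counts on miRNAs for FCx and 3206221, 4956117 and 4053518 for HP, so 1 count was worth more in FCx, and a count of 0 allows 3 counts, or 7.66, 2.05 and 4.60 counts per 1000000 (CPM) in FCx and 0.936, 0.605 and 0.740 CPM in HP. Intervals below are exact 95% intervals and cover counting error only. Neuronal markers (miR-124, miR-128, miR-9 and miR-9*) were abundant in every library. Their summed level was 242710 to 271890 CPM in FCx and 105139 to 167892 CPM in HP, lower in each HP library than in any FCx library. This difference was largely that of miR-128, with 177013 to 208464 CPM in FCx and 63974 to 110495 CPM in HP. MiR-9 had the other direction with each index, at 17202, 36936 and 28695 CPM in FCx and 23927, 57807 and 35218 CPM in HP (indexes 3, 7 and 11).

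MiR-34c was the most abundant of the 8 in both regions by mean level and was higher in HP with each index. With indexes 3, 7 and 11, mmu-miR-34c had 22, 85 and 4 counts in FCx and 431, 1263 and 95 counts in HP. The levels were 56.2, 58.2 and 6.13 CPM in FCx against 134, 255 and 23.4 CPM in HP, and the means (± SD, n = 3 libraries each) were 40.2 ± 29.5 and 138 ± 116 CPM. The index 11 library was the lowest in both regions, and the HP library of index 11 lay below the FCx libraries of indexes 3 and 7, so the regions overlapped. Compared within an index they did not cross, and the HP level was 2.39-fold (1.56 to 3.86), 4.38-fold (3.52 to 5.53) and 3.82-fold (1.44 to 14.3) the FCx level.

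The other miRNAs of the chromosome 9 hairpins had the same direction at lower levels. mmu-miR-34b-5p had 0, 6 and 1 counts in FCx and 60, 56 and 71 in HP. Its levels were 0, 4.10 and 1.53 CPM in FCx and 18.7, 11.3 and 17.5 CPM in HP, and each HP library was above each FCx library. It was the only one of the 8 whose regions did not overlap in this direction (12.5% of the members, against 3.48% of the 431 miRNAs tested). With index 3 the lower bound of the ratio of HP to FCx was 1.93, and with 0 set to 3 counts in that FCx library the ratio was 2.44. The HP level was 2.75-fold (1.19 to 7.82) and 11.4-fold (1.99 to 458) with indexes 7 and 11.

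mmu-miR-34b-3p, the opposite arm of the same hairpin, had 3, 1 and 4 counts in FCx and 70, 17 and 61 in HP. The levels of this arm were 7.66, 0.684 and 6.13 CPM in FCx against 21.8, 3.43 and 15.1 CPM in HP. Index 7 was lowest in both regions, its HP level was below those of indexes 3 and 11 in FCx, and the regions overlapped. The ratios of HP to FCx were 2.85 (0.935 to 14.1), 5.01 (0.786 to 210) and 2.45 (0.911 to 9.30), each with an interval that includes 1. In HP with index 3 this arm had 28 counts in the individual and 42 in the pooled lane, or 13.7 and 36.0 CPM, so the lanes of 1 library also differed.

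The miR-449 miRNAs, the family members with Cdc20b as host, were close to the detection limit. mmu-miR-449b had 0, 3 and 0 counts in FCx and 9, 38 and 2 in HP (0, 2.05 and 0 against 2.81, 7.67 and 0.493 CPM). Only index 7 gave a ratio of HP to FCx, 3.74 (1.19 to 18.9), and the FCx libraries of the other indexes were too shallow for a lower level to be detected. mmu-miR-449a had 0, 2 and 0 counts in FCx and 2, 4 and 0 in HP, and no difference was detectable at this depth. MiR-449c, the third miRNA of the locus, was not listed in any count file.

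mmu-miR-34a, the member outside the ciliated-cell group, did not have this direction. It had 5, 21 and 13 counts in FCx and 14, 43 and 81 in HP, or 12.8, 14.4 and 19.9 CPM against 4.37, 8.68 and 20.0 CPM. The mean (± SD, n = 3 each) was 15.7 ± 3.75 CPM in FCx against 11.0 ± 8.07 CPM for HP, with index 11 highest in both. The ratios of HP to FCx were 0.342 (0.116 to 1.21), 0.604 (0.351 to 1.07) and 1.00 (0.555 to 1.96), and all 3 intervals include 1. Scaled to all genome alignments in place of counts on miRNAs, the means were 8.09 per 1000000 in FCx and 8.87 in HP, so its order between the regions depended on the scaling.

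mmu-miR-204 was the second most abundant of the 8 by mean level and was also higher in HP with each index. It had 13, 3 and 27 counts in FCx and 525 in all in HP, of which 293 came with index 3 and 28 with index 7. The levels were 33.2, 2.05 and 41.4 CPM in FCx and 91.4, 5.65 and 50.3 CPM in HP. Its place depended on the index. With index 11 it was above miR-34c in both regions, and with index 7 in HP it was below miR-34b-5p, miR-34a and miR-449b. Index 7 was far below the other indexes in both regions, and the regions overlapped. HP was 2.75-fold (1.58 to 5.23), 2.75-fold (0.850 to 14.1) and 1.22-fold (0.812 to 1.89) FCx, so the interval excluded 1 with index 3 alone. mmu-miR-211, its near copy, had 2, 0 and 1 counts in FCx and 6, 2 and 5 in HP, or 5.11, 0 and 1.53 CPM against 1.87, 0.404 and 1.23 CPM, and no difference between the regions was detectable. Of the counts with the seed of miR-204 and miR-211, miR-204 took 86.7% to 100% in FCx and 93.3% to 98.0% in HP.

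**Figure D1:**
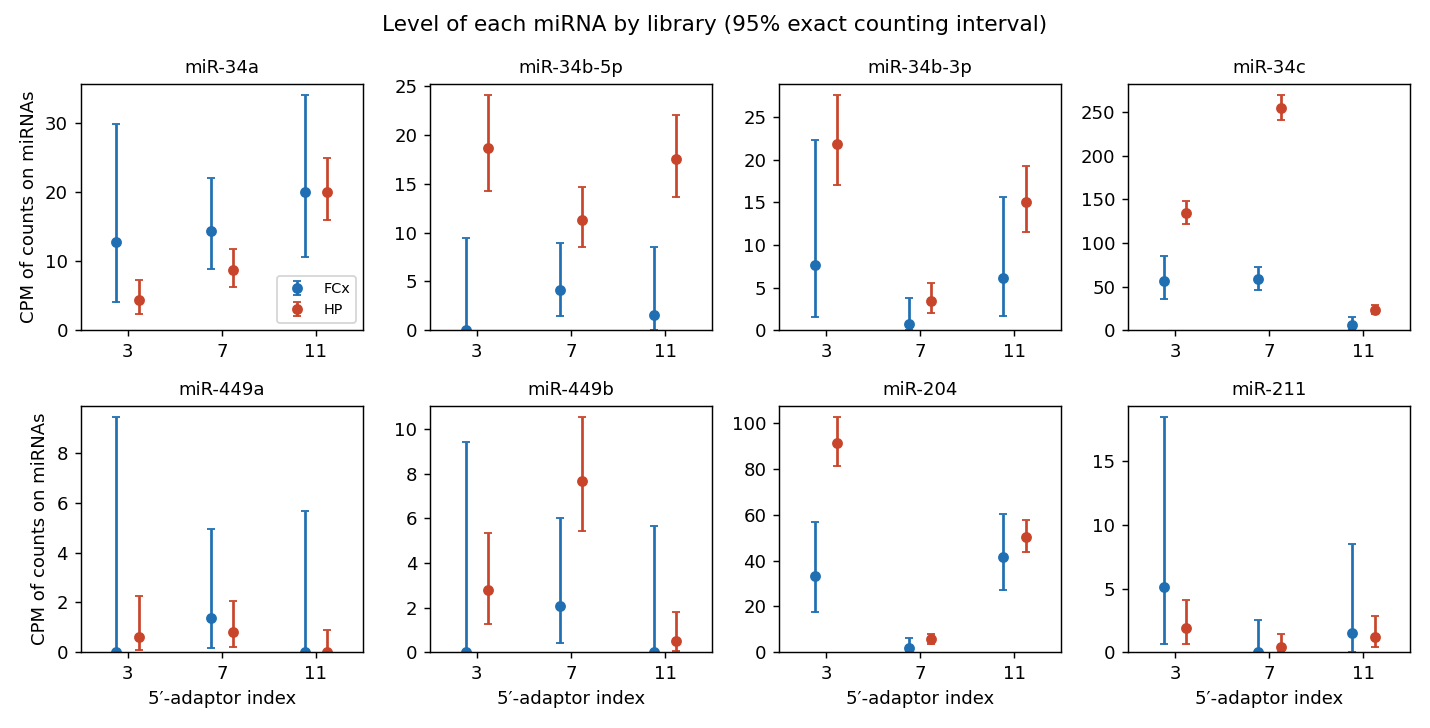
Level of each of the 8 miRNAs in CPM of the counts on miRNAs (linear axes that start at 0 and differ between panels) by 5′-adaptor index, in FCx (blue) and HP (red), 1 point per library with its exact 95% counting interval. The HP points lie above the FCx points with each index for miR-34c, miR-34b-5p, miR-34b-3p, miR-449b and miR-204. Intervals overlap at each index for miR-34b-3p and miR-449b, at index 7 for miR-34b-5p and at indexes 7 and 11 for miR-204. FCx counts of miR-449b were 0 with indexes 3 and 11. Within HP, the level of miR-34c falls from 255 CPM with index 7 to 23.4 CPM with index 11.

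With each of the 3 indexes, 5 of the 8 miRNAs had a higher CPM in HP than in FCx (62.5%), against 80 of the 431 miRNAs tested (18.6%), where a count of 0 in FCx was taken as 0. The members were chosen with earlier results of these data known, so this share and the shares of calls below are descriptions and not tests of the group. The 5 are also not independent of each other. MiR-34c, miR-34b-5p and miR-34b-3p come from hairpins that lie side by side, and miR-449b had no genome alignment at its own arm. None of the 8 was higher in FCx with each index, against 85 of the 431 (19.7%). With FCx counts of 0 set to 3 counts per library, a setting chosen after seeing the data, miR-34c, miR-34b-5p, miR-34b-3p and miR-204 were left (4 of 8, against 58 of the 431 or 13.5%). MiR-449b was no longer among them, since its HP levels with indexes 3 and 11 lay below what 0 counts allow in FCx. Whether the tissues held more cells of a type or more of the miRNA per cell cannot be told apart in such bulk libraries. The mean log2 ratio over the 3 indexes was 1.77 ± 0.46 for miR-34c, 1.71 ± 0.54 for miR-34b-3p, 1.07 ± 0.68 for miR-204 and -0.76 ± 0.78 for miR-34a (SD, n = 3 indexes), the 4 members with counts in all 6 libraries.

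**Figure D2:**
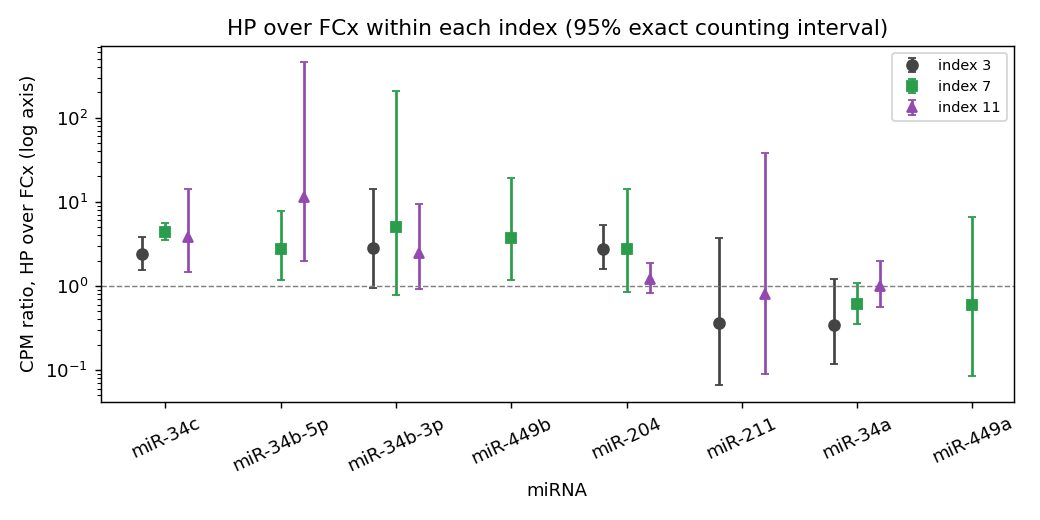
Ratio of the CPM in HP to that in FCx within each index (log axis, dashed line at 1) for the 8 miRNAs, with exact 95% counting intervals; pairs of libraries in which FCx or both regions had 0 counts are not drawn. The 3 ratios of miR-34c lie between 2.39 and 4.38 with intervals above 1, and those of miR-34a between 0.342 and 1.00.

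The comparison of HP and FCx over all 431 miRNAs was first made without regard to the index, as a test of 3 libraries against 3. The fitted log2 fold changes of HP over FCx were 3.06 (SE 1.13) for miR-34b-5p, 2.17 (SE 1.14) for miR-34b-3p, 2.01 (SE 1.07) for miR-34c, 1.91 (SE 1.35) for miR-449b and 1.54 (SE 1.22) for miR-204. Those of miR-211, miR-34a and miR-449a were 0.03, -0.00 and -0.35, with SEs of 0.94 to 1.44. With edgeR's quasi-likelihood test 0 of the 8 were called at an adjusted p under 0.05, against 0.464% of the 431 (miR-183 and miR-200c, both higher in FCx). At an unadjusted p under 0.05, 1 of the 8 passed (miR-34b-5p, adjusted p = 0.65), against 3.94% of all. DESeq2's Wald test called 0 of the 8 and 12 miRNAs in all. The exact test of edgeR was run on all 12 lane files, so that both runs of a library count as replicates. It called miR-34b-5p (adjusted p = 0.025) among 14 miRNAs in all.

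The libraries with the same index deviated from their region's mean in the same way, and with the index as a block 4 of the 8 were called, all higher in HP, against 12.8% of the 431 called higher in HP. On simulated counts this blocked test made more false calls than its threshold states when many miRNAs were changed. MiR-34c had a log2 fold change of 2.09 (SE 0.32, adjusted p = 5.5e-09), miR-34b-5p of 2.72 (SE 0.57, adjusted p = 4.3e-05), miR-204 of 1.49 (SE 0.37, adjusted p = 0.00090) and miR-34b-3p of 2.09 (SE 0.58, adjusted p = 0.0039). MiR-449b had a similar fold change of 2.05 with a wider SE of 1.06 and was not called (adjusted p = 0.19). MiR-34a had -0.25 (SE 0.42, adjusted p = 0.79), miR-449a -0.35 (SE 1.89, adjusted p = 0.93) and miR-211 0.03 (SE 1.35, adjusted p = 0.99).

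These values move with the scaling. Under the trimmed mean scaling (TMM) the median log2 fold change of all 431 miRNAs was 0.38 in the blocked fit, and under library totals it was 0.01. Relative to that median, miR-34c was at 1.70 and 1.77, miR-34b-5p at 2.33 and 2.43, miR-34b-3p at 1.71 and 1.54, miR-204 at 1.11 and 0.92, and miR-34a at -0.64 and -0.60 under TMM and library totals. With library totals the blocked test called 2 of the 8, against 4.64% of all miRNAs called higher in HP. MiR-34c (1.78, SE 0.35, adjusted p = 1.1e-05) and miR-34b-5p (2.43, SE 0.57, adjusted p = 0.00037) passed, while miR-34b-3p (1.55, SE 0.58, adjusted p = 0.054) and miR-204 (0.93, SE 0.37, adjusted p = 0.088) did not. The sign for miR-211 was positive under TMM and negative (-0.51) under library totals. In the blocked TMM fit the median log2 fold change of the 8 was 1.77.

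Leaving out 1 index from the blocked TMM fit decided some of these calls. MiR-34c and miR-34b-5p passed without index 3, without index 7 and without index 11. MiR-204 passed only without index 11 (log2 fold change 1.60), at 1.01 without index 3 and 1.21 without index 7. MiR-34b-3p passed in none of the 3, at 1.97, 1.79 and 1.85 without indexes 3, 7 and 11 (adjusted p of 0.068 to 0.083), near its 2.09 with all libraries. MiR-34b-5p moved to 4.56 without index 7 and to 1.95 without index 11.

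**Figure D3:**
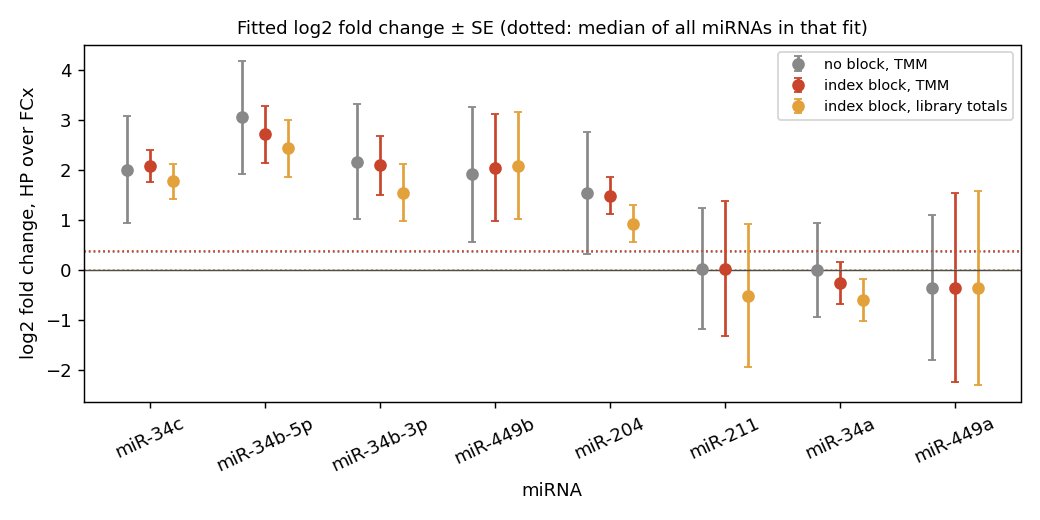
Fitted log2 fold change of HP over FCx with its standard error for the 8 miRNAs in 3 fits (grey, no block with TMM; red, index block with TMM; yellow, index block with library totals), with dotted lines at the median of all 431 miRNAs in each fit. MiR-34c stays between 1.78 and 2.09 in the 3 fits while its SE falls from 1.07 to 0.32 with the block.

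A ratio of 2 miRNAs in 1 library does not depend on the library's scaling. The libraries held 4.40, 4.05 and 0.308 counts of miR-34c per count of miR-34a in FCx, in the order of indexes 3, 7 and 11, and 30.8, 29.4 and 1.17 in HP. This ratio was thus 7.00 (1.79 to 22.9), 7.26 (3.89 to 13.1) and 3.81 (1.11 to 16.6) times as high in HP, with each interval above 1. For miR-34b-5p per miR-34a the HP ratio was 4.56 (1.58 to 14.9) and 11.4 (1.62 to 491) times the FCx ratio with indexes 7 and 11, and the lower bound was 3.38 with index 3. For miR-34b-3p per miR-34a the values were 8.33 (1.39 to 58.0), 8.30 (1.12 to 363) and 2.45 (0.706 to 10.8), and for miR-204 per miR-34a they were 8.05 (1.94 to 28.4), 4.56 (1.18 to 25.7) and 1.21 (0.546 to 2.57). The intervals with index 11 thus include 1 for miR-34b-3p and miR-204. These intervals compare pairs of libraries and hold no spread between animals. The ratios to miR-34a also hold its own level, which by CPM was 0.342, 0.604 and 1.00 times as high in HP (indexes 3, 7 and 11). With index 3 they rest on 5 counts of miR-34a in FCx. By CPM alone, the interval of miR-34b-3p included 1 with each index, and that of miR-204 with indexes 7 and 11. Between miR-34c and miR-34b-3p, in contrast, the HP ratio was 0.840, 0.874 and 1.56 times the FCx ratio, and all 3 intervals include 1 (0.0207 to 8.67 at the widest bounds).

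The makeup of the 5 miRNAs with the seed GGCAGUG depended on both the region and the index. MiR-34c made up 81.5%, 72.6% and 22.2% of their counts in FCx and 83.5%, 90.0% and 38.2% in HP. MiR-34a made up 18.5%, 17.9% and 72.2% in FCx against 2.71%, 3.06% and 32.5% in HP, so its share was lower in HP with each index. MiR-34b-5p made up 0 to 5.56% in FCx and 11.6%, 3.99% and 28.5% in HP. The FCx shares with indexes 3 and 11 rest on 27 and 18 counts in all. The summed level of the 5 was 69.0, 80.0 and 27.6 CPM in FCx and 161, 283 and 61.4 CPM in HP.

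**Figure D4:**
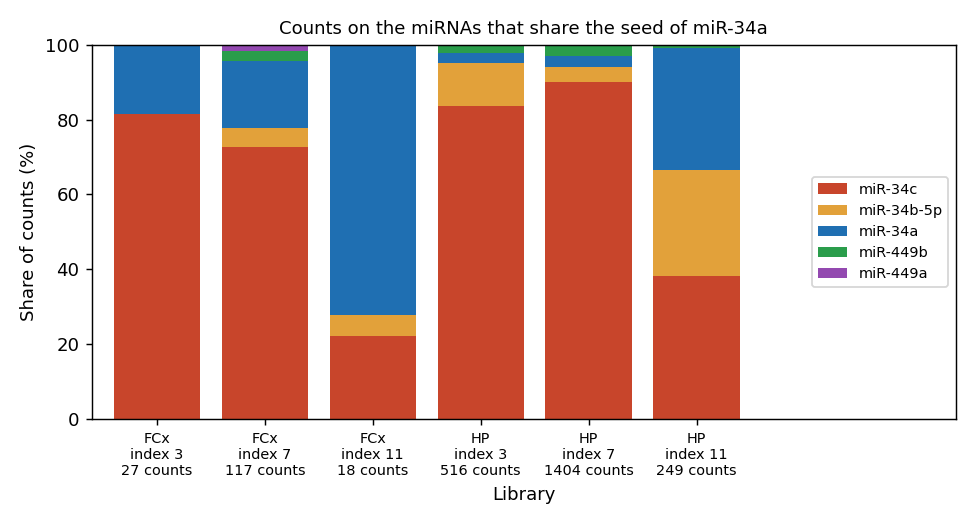
Share in percent of the counts on the 5 miRNAs that carry the seed of miR-34a, 1 stacked bar per library, with the number of counts under each bar. MiR-34a (blue) takes 72.2% in FCx and 32.5% in HP with index 11, and 18.5% and 2.71% with index 3.

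The levels also differed between the indexes within a region. A test of the indexes with the region in the model called 5 of the 8 (62.5%), close to the 61.3% called among all 431. They were miR-204 (adjusted p = 9.4e-16), miR-34c (1.1e-11), miR-34b-3p (3.0e-05), miR-34a (0.00031) and miR-449b (0.017). MiR-34b-5p (adjusted p = 0.49), miR-449a (0.49) and miR-211 (0.27) were not called. In HP the highest index exceeded the lowest 16.2-fold for miR-204 (index 3 over 7), 10.9-fold for miR-34c (7 over 11), 6.36-fold for miR-34b-3p (3 over 7) and 4.58-fold for miR-34a (11 over 3), against 1.66-fold for miR-34b-5p (3 over 7). The order of the indexes was the same in FCx for miR-34c, miR-34b-3p and miR-34a. For miR-204, index 7 was lowest in both, and indexes 3 and 11 changed places.

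The near-identical pair miR-34b-5p and miR-34c also differed in their spread over the indexes. Both begin with the same 10 bases, and they differ only at A11G and in the length of the 3′ end. In HP miR-34c had 7.18, 22.6 and 1.34 counts per count of miR-34b-5p with indexes 3, 7 and 11. The 2 arms of the miR-34b hairpin changed order with the index as well, with 0.857, 3.29 and 1.16 counts of miR-34b-5p per count of miR-34b-3p in HP.

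By mean level, the order in HP was miR-34c, miR-204, miR-34b-5p, miR-34b-3p, miR-34a, miR-449b, miR-211 and miR-449a, and the library ranges of every pair of neighbours overlapped. In FCx it was miR-34c, miR-204, miR-34a, miR-34b-3p, miR-211, miR-34b-5p, miR-449b and miR-449a, where only miR-34a (12.8 to 19.9 CPM) and miR-34b-3p (0.684 to 7.66 CPM) did not overlap as neighbours. Among the 431 miRNAs miR-34c ranked 119 in HP and 185 in FCx by mean CPM, and miR-204 ranked 167 in HP. MiR-34b-5p ranked 225 in HP and 333 in FCx, and miR-34a 248 and 229.

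Over the 6 libraries, the miRNAs whose log2 CPM followed a member most closely were different for each member. Among 269 other miRNAs with at least 100 counts, those for miR-34c were miR-7b (Pearson r = 0.98) and miR-21 (0.95), for miR-34b-5p let-7c (0.94) and miR-448 (0.94), and for miR-34b-3p miR-101b (0.99) and miR-98 (0.97). For miR-204 they were miR-384-3p (0.97) and miR-30c-2* (0.96), and for miR-34a miR-153 (0.84) and miR-29a (0.79). Within the members, miR-34b-3p and miR-204 had an r of 0.95, miR-34b-5p and miR-34c 0.38, miR-34b-3p and miR-34c -0.07, and miR-34a and miR-34c -0.79. The 6 points share the indexes and the RNA pools, and these values describe the libraries only.

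The genome alignments of the same reads were examined at the hairpins, since they do not pass through the assignment to mature names. At the miR-34c arm there were 106 alignments in FCx and 1745 in HP, which came to 97.4% of its 1900 counts, and 99.5% began at the first base of the mature sequence. For miR-34b-5p and miR-34b-3p the alignments came to 97.4% and 95.5% of the counts, and for miR-34a to 91.0%. MiR-34c had 30.3, 36.1 and 1.85 alignments per 1000000 genome alignments in FCx and 116, 220 and 16.4 in HP.

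A start 1 base further in moves the seed by 1 base. Such starts made up 23.5% of the 149 alignments of miR-34b-3p, 11.8% of the 228 of miR-204, 1.06% of the 189 of miR-34b-5p and 0.324% of the 1851 of miR-34c. Their share depended on the library. In HP it was 22.1% of 68, 0 of 13 and 29.5% of 61 alignments for miR-34b-3p (indexes 3, 7 and 11) and 21.2% of 118, 8.33% of 12 and 0 of 79 for miR-204. A start 1 base earlier was seen in 7.41% of the miR-34b-5p alignments. Read lengths were mostly at 22 nt (91.0% of the miR-34c alignments), so the 3′ ends were not compared.

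MiR-449b and miR-204 stood apart in this readout. At the miR-449b arm there was no alignment in any library, against 52 counts, 38 of them in HP with index 7. That library also had 117 alignments of 17 nt at the miR-34c arm, of 139 in all libraries, and the sequences of these reads were not used here. In HP miR-449b had 0.0209, 0.0301 and 0.0211 counts per count of miR-34c (indexes 3, 7 and 11). MiR-449a, which lies beside it, had 8 alignments and 8 counts. For miR-204 the 228 alignments came to 40.1% of the 568 counts, and to between 33.3% and 48.1% in each of the 6 libraries. For miR-211 there were 9 alignments for 16 counts. The level of miR-449b is therefore uncertain, and that of miR-204 differs between the readouts. Per 1000000 genome alignments miR-204 was higher in HP with each index (6.88, 0.446 and 8.02 in FCx, 32.2, 2.14 and 14.7 in HP). This scaling differs from that of CPM. With index 11 there were 652449 counts on miRNAs beside 1620437 genome alignments in FCx, and 4053518 beside 5363837 in HP. The scaling itself thus raises HP with index 11, and the alignments do not settle the order of miR-204 at that index.

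**Figure D5:**
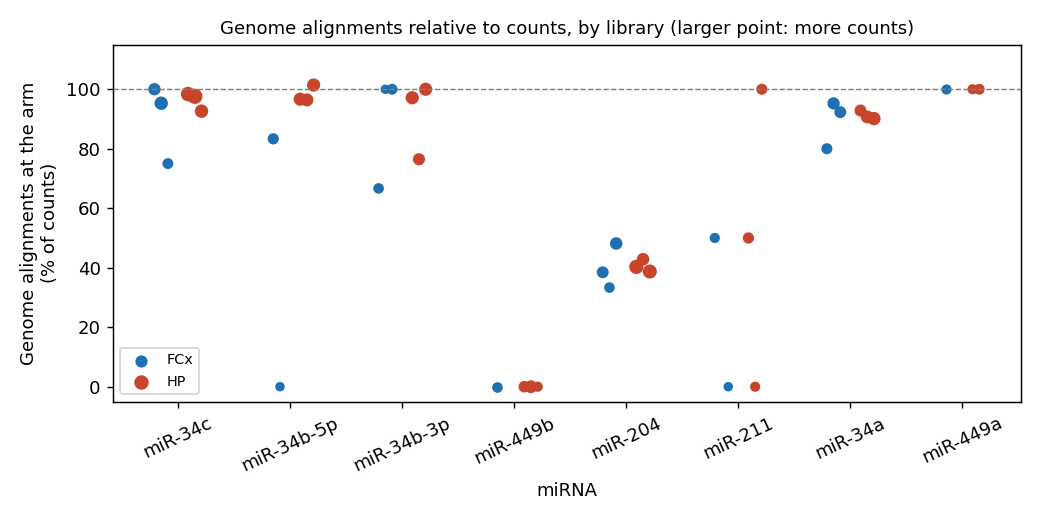
Genome alignments at each mature arm in percent of the counts on that miRNA, 1 point per library with at least 1 count (FCx blue, HP red, larger points for more counts, dashed line at 100%). MiR-449b is at 0 in every library and miR-204 between 33.3% and 48.1%, while the miR-34c libraries lie between 75.0% and 100%.

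Star forms of these hairpins had few or no entries in the count files, which does not show that these arms were rare. The opposite arm of miR-34b is listed under its own name, as miR-34b-3p. The 3′ arm of miR-204 had 93 genome alignments beside 228 of miR-204 itself. MiR-34c* had 0 counts in FCx and 1, 0 and 2 in HP, and the star forms of miR-34a, miR-34b, miR-449a, miR-449c, miR-204 and miR-211 were not listed in any count file.

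Markers of other cell types were given by the same fits. Of 9 epithelial miRNAs, 8 were called higher in FCx in the blocked fit (background 5.10% higher in FCx), and 2, miR-183 and miR-200c, named after their values were seen, in the fit without the block. The study places these 8 in a few chromosomal clusters, so they are not independent of each other, and the list was chosen with earlier results of these data known. Summed over the 9, the level was 1517 to 5965 CPM in FCx and 41.0 to 299 CPM in HP. MiR-96 of the miR-183 cluster had the lowest fold change of the list (log2 -7.70, SE 1.24, adjusted p = 2.9e-08), with 2.55, 19.2 and 6.13 CPM in FCx and 0 counts in all HP libraries, so that its fitted value depends on the prior count, and miR-31 had the highest (-0.71, SE 0.29, adjusted p = 0.075). These miRNAs were thus opposite in direction to miR-34b/c and miR-204, and their part in the results above was not tested.

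The remaining lists held few calls. In the blocked fit 1 of 4 neuronal, 1 of 3 oligodendrocyte, 1 of 4 vessel and 0 of 7 blood and microglia miRNAs were called higher in HP (background 12.8%), and none of them higher in FCx (background 5.10%). One of the 7 blood and microglia miRNAs had an unadjusted p under 0.05, against 27.6% of all miRNAs. With library totals 2 neuronal miRNAs (miR-124 and miR-128) and 1 blood miRNA (miR-486) were called, all higher in FCx (background 8.35%). MiR-219 of oligodendrocytes had a log2 fold change of 1.09 (SE 0.30, adjusted p = 0.0029), and the neuronal extremes were miR-9 (0.89, SE 0.32, adjusted p = 0.035) and miR-128 (-0.86, SE 0.35, adjusted p = 0.063). The vessel miRNA called was miR-126-5p (0.97, SE 0.29, adjusted p = 0.0076), which like miR-124 and miR-16 is named here after its values were seen. The extremes of the vessel list were miR-145 (1.13) and miR-126-3p (0.41), and those of the blood and microglia list miR-144 (0.94) and miR-486 (-0.65), of which none was called in the blocked TMM fit. Summed levels did not overlap for the neuronal list, largely through miR-128, while miR-9 had the other direction, as given above. They overlapped between the regions for oligodendrocytes (556 to 1625 CPM in FCx, 421 to 2463 in HP), blood and microglia (99.6 to 183 and 69.3 to 181) and vessels (274 to 691 and 272 to 839).

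Of 6 other miRNAs known to respond to p53, as miR-34a does, 1 was called in the blocked fit (miR-16, log2 fold change 0.77, SE 0.29, adjusted p = 0.042), against 12.8% of all called higher in HP, and 2 had an unadjusted p under 0.05, against 27.6% of all. Their fold changes ran from 0.13 for miR-15a to 0.85 for miR-194 on the log2 scale, with a median of 0.51 against 0.38 for all miRNAs.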

How the data were processed

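The authors sorted reads by index, trimmed the adaptors and aligned the reads with Bowtie (up to 2 mismatches). The deposited counts give, for each of 12 lane files, how many reads fell on each mature miRNA (miRBase 11), not normalized. The deposited genome alignments (NCBIM37) hold positions, with a constant alignment score that was not used. Here the 2 runs of a library were summed, and CPM (counts per 1000000) refers to counts on miRNAs. HP and FCx were compared with edgeR 4.0.16 in R 4.3.3 (quasi-likelihood test, TMM, Benjamini-Hochberg adjustment over 431 miRNAs, called at 0.05). Every adjusted p comes from this test with TMM unless library totals, edgeR's exact test or DESeq2 1.42.0 is named. Libraries of the same index correlated in their deviations from the region mean (r = 0.75, 0.84 and 0.83 over 431 miRNAs), so index was also fitted as a block. Different indexes had an r of -0.58 to -0.24. Given the positive values, centring on the region mean makes these negative by construction, so they add no separate evidence. The region test and the index test were checked on simulated counts, where the blocked test made more false calls than its threshold states when many miRNAs were changed. Ratio intervals are conditional exact. Alignments were counted at GENCODE vM1 hairpins on the hairpin's strand. Python 3.11.15 was used with pandas 2.3.3, scipy 1.17.1 and matplotlib 3.10.9. The text names the 8 miRNAs, their other arms, the extremes of each marker list and the miRNAs most alike to a member. The members and lists were chosen with earlier results of these data known.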

Additional observations from a re-analysis of the deposited data

Results flagged for a closer look

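The 3′ arm of the miR-204 hairpin, which has no entry in the count files, had 10 genome alignments in FCx and 83 in HP. Both are above the 3 that a count of 0 allows. By index (3, 7 and 11) they were 6, 4 and 0 in FCx and 43, 35 and 5 in HP, beside 5, 1 and 13 and 118, 12 and 79 alignments of miR-204 itself. The arm with more alignments thus changed with the index in HP, while in FCx the order with indexes 3 and 7 rests on few alignments. Alignments of miR-204 itself came to only 40.1% of its counts, so this order holds for alignments only. On the strand opposite to the miR-34b hairpin there were 5 alignments in HP and 1 in FCx. With 3 libraries per region no library was tested as an outlier.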

How the results depend on the processing

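Without a block, the number of miRNAs called between the regions (2 of 431) moved to 8 without the count filter, 0 with the pooled lanes only, 12 with DESeq2's Wald test and 14 with edgeR's exact test on lane files, and ranged from 0 to 7 when 1 library was left out. It was 7 without FCx index 11 or HP index 7 and 0 without HP index 3 or HP index 11. Of the 8 miRNAs described, 0 were called under all of these except the exact test, which called 1, and the adjusted p of miR-34c ranged from 0.32 to 1.00 and that of miR-34b-5p from 0.025 to 1.00.

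With the replicate block the counts were 77 in all and 4 of the 8, with library totals 56 and 2, and 30, 41 and 51 in all and 2, 2 and 3 of the 8 without index 3, 7 and 11. The fold changes of miR-34c, miR-34b-5p, miR-34b-3p, miR-449b and miR-204 were positive in every fit run, but their size moved with single libraries. Without the block, the log2 value of miR-34c was 1.11 without HP index 7 and 1.28 without FCx index 11, that of miR-204 0.64 without HP index 3, 0.66 without FCx index 7 and 0.89 without HP index 11, that of miR-34b-3p 1.30 without FCx index 7, and that of miR-449b 0.71 without HP index 7 and 6.15 without FCx index 7. That of miR-34a was positive in 4 of 15 fits without the block and in 0 of 5 with it, and those of miR-449a and miR-211 also changed sign, with no call in any fit. The index effect was called for 264 miRNAs and for 256 to 269 under its alternatives, except 214 with pooled lanes only, and for 4 or 5 of the 8. The mean CPM was higher in HP for 6 of the 8, and for 7 when scaled to genome alignments. No background over all miRNAs tested is given for either count. The member added by the change of scaling is miR-34a. That scaling raises HP, since 2505591 counts on miRNAs stood beside 4587713 genome alignments in FCx, and 12215856 beside 14631970 in HP. One of the 6 is miR-449a, with means of 0.456 and 0.477 CPM from 2 and 6 counts, which over the pooled counts of a region has the other order (0.798 and 0.491 CPM), so it carries no direction. FCx counts under 10 limit miR-34b-5p, miR-34b-3p, miR-449a, miR-449b and miR-211. The causes of these shifts were not tested.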
